A study of Mus musculus with 6 samples.

Results

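MitoParks are a mouse model of Parkinson's disease, and 10 transcripts known only by the names of their cDNA clones were followed here in the substantia nigra (SN) of each animal. A symbol ending in Rik marks a mouse gene that was found by large-scale sequencing of full-length cDNA clones and has not yet been given a name for what it does. The 10 transcripts were chosen by measured values, since the study's heat map lists them among the genes whose levels differed between MitoParks and littermate controls, and the choice rests on the same contrast in the same mice. Their differences between the groups are therefore given as a description, without a test. The table held 24054 genes, of which 1870 carried a Rik symbol, and all 10 transcripts were found in it.

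Libraries of polyadenylated RNA came from 3 MitoParks and 3 littermate controls, untreated and, by the series' design text, 16 to 17 weeks old. By the study's methods, MitoParks carried Cre on 1 copy of the dopamine transporter gene (Dat+/Cre) and loxP sites on both copies of Tfam, the gene for a protein that maintains mitochondrial DNA, so that Tfam was lost only from cells that use the dopamine transporter. The littermate controls lacked Cre (Dat+/+), carried loxP on 1 copy of Tfam and came from MitoPark or parental strain litters, all on C57BL/6. The labels name the tissue as brain and the methods name the SN, and which litter a mouse came from is not given in the sources used here. In bulk tissue, fewer cells of a type and less RNA per cell cannot be told apart.

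Of the 10 transcripts, 9 were long noncoding RNAs in RefSeq and 1, 5830417I10Rik, was a transcribed pseudogene. The annotations differ for A630089N07Rik, which GENCODE M21 lists as protein-coding. Long noncoding RNAs are made and often spliced like messenger RNAs but encode no known protein. Some stay in the nucleus and act on chromatin or on neighbouring genes, and many are present in few cell types and at low levels. A transcribed pseudogene is a disabled copy of a gene that is still read into RNA. No function is stated here for any of the 10.

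Promoter sequences, from 250 bases before to 50 after the start of each gene, were found in RefSeq (GRCm38.p6) for 5 of the 10 transcripts. They are shown because 4 of them belong to transcripts that stood high together in 1 MitoPark, and the other belongs to the transcript with the largest fold change of the 10. Capitals mark GGGCGG, the GC box, and CCAAT, both on either strand. In A630089N07Rik, 2 of the CCAAT matches lie side by side on opposite strands without sharing bases.
1500004A13Rik, chr3:88832498-88832797, minus strand: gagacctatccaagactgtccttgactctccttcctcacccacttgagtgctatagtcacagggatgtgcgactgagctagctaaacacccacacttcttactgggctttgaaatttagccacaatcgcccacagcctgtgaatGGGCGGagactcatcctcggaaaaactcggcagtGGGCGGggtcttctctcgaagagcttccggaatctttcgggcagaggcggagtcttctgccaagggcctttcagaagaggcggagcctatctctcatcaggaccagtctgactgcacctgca
A730017L22Rik, chr2:130906347-130906646, minus strand: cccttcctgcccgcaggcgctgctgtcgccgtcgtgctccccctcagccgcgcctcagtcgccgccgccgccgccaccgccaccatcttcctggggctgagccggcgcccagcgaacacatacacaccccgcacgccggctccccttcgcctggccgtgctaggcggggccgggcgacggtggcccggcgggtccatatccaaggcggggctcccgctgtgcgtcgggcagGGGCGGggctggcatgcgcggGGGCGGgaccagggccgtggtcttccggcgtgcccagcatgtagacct
A130077B15Rik, chr10:122569842-122570141, minus strand: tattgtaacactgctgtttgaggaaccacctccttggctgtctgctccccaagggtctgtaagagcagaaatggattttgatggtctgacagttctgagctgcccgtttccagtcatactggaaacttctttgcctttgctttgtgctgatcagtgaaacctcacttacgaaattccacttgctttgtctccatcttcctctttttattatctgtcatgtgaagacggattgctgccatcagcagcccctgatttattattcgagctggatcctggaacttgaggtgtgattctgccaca
A630089N07Rik, chr16:98082390-98082689, minus strand: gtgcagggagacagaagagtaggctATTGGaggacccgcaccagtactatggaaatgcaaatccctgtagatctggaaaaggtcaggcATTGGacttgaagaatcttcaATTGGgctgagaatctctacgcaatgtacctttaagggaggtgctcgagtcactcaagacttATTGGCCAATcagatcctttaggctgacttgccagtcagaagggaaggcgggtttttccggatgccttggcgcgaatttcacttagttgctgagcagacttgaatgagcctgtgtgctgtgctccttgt
9530091C08Rik, chr9:68765096-68765395, plus strand: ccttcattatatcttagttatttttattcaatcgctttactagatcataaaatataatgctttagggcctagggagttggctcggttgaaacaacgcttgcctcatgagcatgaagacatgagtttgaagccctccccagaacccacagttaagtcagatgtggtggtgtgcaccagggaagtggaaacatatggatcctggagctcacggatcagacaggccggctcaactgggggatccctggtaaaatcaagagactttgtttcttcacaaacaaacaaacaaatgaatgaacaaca
The promoters differed in make-up. That of A730017L22Rik had 38 CG dinucleotides and a GC content of 76.0%, while those of A130077B15Rik and 9530091C08Rik had 4 and 5 CG dinucleotides, against a median of 7 over 32851 mouse promoters of the same length. GGGCGG occurred 2 times each in the promoters of 1500004A13Rik and A730017L22Rik, and 35.66% of all promoters hold it. CCAAT occurred 5 times in that of A630089N07Rik, and 37.41% of all promoters hold it. None of the 5 held TATAAA, which 13.62% of all promoters hold. The AP-1 motif TGACTCA, present in 5.2% of all promoters, and the CRE motif TGACGTCA, present in 1.79%, were not in them either. No motif searched was shared by the 4 promoters of the transcripts that stood high together.

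The libraries held between 8140777 and 10528602 expected counts, and levels are given as counts per 1000000 (CPM) after TMM normalization, where a single count was worth 0.095 to 0.122 CPM. The targeted gene, Tfam, measured 40.3, 44.4 and 45.5 CPM in the controls against 32.7, 33.1 and 33.2 CPM in the MitoParks, replicates 1, 2 and 3 in turn. The dopaminergic markers Th, which encodes tyrosine hydroxylase, and Slc6a3, the dopamine transporter, were counted in all 6 mice. The 7 markers of this list summed to 438, 529 and 1413 CPM in the controls against 297, 534 and 524.5 CPM in the MitoParks. Littermate controls 1 and 2 thus lay within the range of the MitoParks. Of these 7 markers, Slc6a3 and Foxa1 were lower in MitoParks and past the study's cutoffs, and of the other lists 1 gene, Mrc1 of macrophages, was past them as higher. The groups overlapped in Foxa1, with 9.24 CPM in littermate control 1 and 12.3 CPM in MitoPark 2. Xist, the RNA of the inactive X chromosome, was at 830 CPM or more in littermate controls 2 and 3 and MitoParks 1 and 3 and at 1.56 and 2.12 CPM in littermate control 1 and MitoPark 2, the mice in which Y-linked Ddx3y was at 117 and 168 CPM, so each group held 1 male and 2 females by these genes. MitoPark 3 stood apart in Tph2, the serotonin synthesis enzyme, with 23.4 CPM against 0.244 to 0.782 CPM in the other mice. It also stood apart in the sum of the 6 nuclear-retained long noncoding RNAs checked, at 16760 CPM there and between 9000 and 10080 CPM in the others. The largest parts of this sum were Meg3 and Malat1, while Rian was lowest in MitoPark 3. Rn45s, the ribosomal RNA precursor, was at 9031 CPM in MitoPark 3 and between 1276 and 4542 CPM elsewhere. Tph2 and Rn45s were chosen after their values were seen.

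All 10 transcripts passed the filter of a mean above 1 CPM in at least 1 group, which 654 of the Rik symbols and 14568 genes in all passed. Of these transcripts, 6330415B21Rik passed it through the MitoParks only, and 1500004A13Rik and 1700123M08Rik through the littermate controls only, the group where each is high. The study's cutoffs, p below 0.05 before adjustment and a change of more than 1.5 times, were applied with edgeR's quasi-likelihood test. Of the 10 transcripts, 6 were past them, 3 higher and 3 lower in MitoParks, beside 0.577% of all genes tested (0.378% higher and 0.199% lower) and 1.53% of tested Rik symbols, and nothing is read from this count because the same contrast chose the transcripts. Without littermate control 1 the count of listed transcripts was 3, and without MitoPark 3 it was 4 of the 9 that then passed the filter. With edgeR's quasi-likelihood test 0 genes of the table had an adjusted p below 0.05 and 161 an unadjusted one, and the adjusted count was 1 by edgeR's exact test and 0 by DESeq2 and by limma-voom. The other 4 transcripts, A130077B15Rik, A630089N07Rik, 4930511M06Rik and 9530091C08Rik, were past the fold change of 1.5, as were 2.85% of all genes and 6.88% of Rik symbols, but not past the cutoff on p. Nearest to the cutoff on p, A730017L22Rik was inside both cutoffs with a log2 fold change (log2FC, MitoPark over littermate control) of 0.63 ± 0.27 (SE), and 9530091C08Rik was outside them with 0.78 ± 0.37 (SE). MitoParks and controls were fully separated in 3 of the 10 transcripts, C730027H18Rik, 6330415B21Rik and 1700123M08Rik, beside 4.71% of all genes tested and 6.27% of Rik symbols. Nothing is read from this count either, since the same contrast chose the transcripts.

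**Figure D1:**
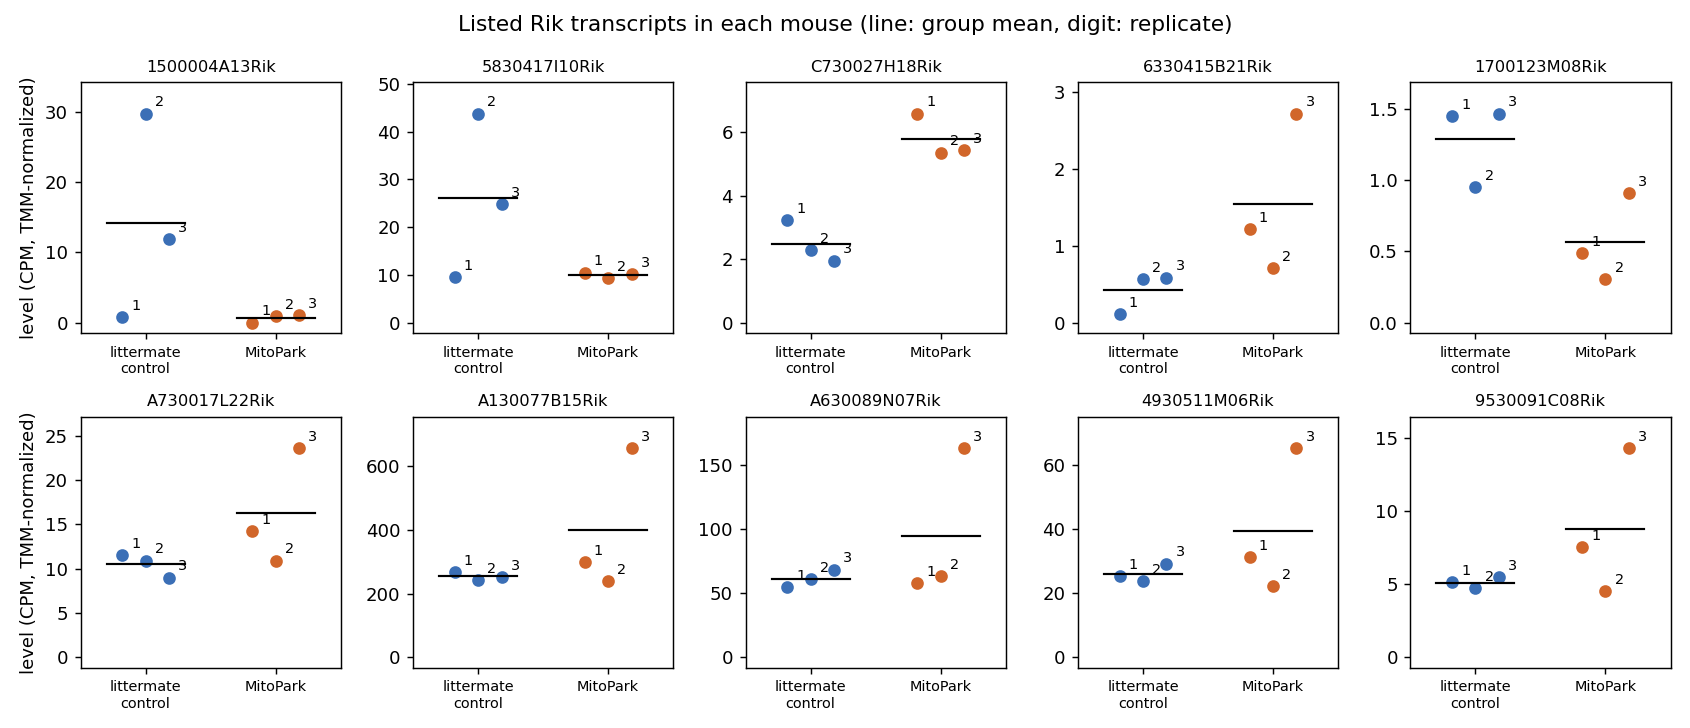
Level of each of the 10 Rik transcripts in each mouse, in TMM-normalized CPM on axes of their own, with littermate controls in blue, MitoParks in orange, the replicate number beside each point and the group mean (n = 3) as a line. 1500004A13Rik and 5830417I10Rik were high in littermate controls 2 and 3, and the 5 transcripts of the lower row had their highest point in MitoPark 3.

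The patterns across mice fell into 3 kinds. For 1500004A13Rik and 5830417I10Rik, littermate controls 2 and 3 were high and the other 4 mice were low. C730027H18Rik, 6330415B21Rik and 1700123M08Rik separated the groups, at low counts. The remaining 5 were highest in MitoPark 3 and differed by at most 1.66 times among the other 5 mice.

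1500004A13Rik measured 0.78, 29.7 and 11.9 CPM in control mice 1, 2 and 3. In MitoParks 1, 2 and 3 it was at 0, 0.91 and 1.02 CPM. Littermate control 1 thus lay within the range of the MitoParks, while littermate control 2 was 46.2 times their mean. The counts behind these levels were 7, 313 and 122 in littermate controls and 0, 9 and 9 in MitoParks. The group means were 14.1 ± 14.6 CPM (SD, n = 3) and 0.643 ± 0.56 CPM (SD, n = 3), with a log2FC of -4.40 ± 1.13 (SE) that ranged from -4.94 without littermate control 1 to -3.25 without littermate control 2. The 2 high littermate controls were the ones with Xist, while the 2 MitoParks with Xist were at 0 and 1.02 CPM. By limma-voom, the standard error of 1500004A13Rik was 2.22 and it was not past the cutoffs.

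5830417I10Rik measured 9.47, 43.8 and 24.8 CPM in control mice 1, 2 and 3. The MitoParks were at 10.5, 9.3 and 10.2 CPM. The same 2 littermate controls were high, and the other 4 mice lay close together, between 9.3 and 10.5 CPM. The group means were 26.03 ± 17.2 CPM (SD, n = 3) and 9.996 ± 0.618 CPM (SD, n = 3). Between the groups the log2FC was -1.39 ± 0.43 (SE), and without littermate control 2 it was -0.78 and no longer past the cutoffs. Littermate control 2 exceeded littermate control 3 in both transcripts, 2.49 times in 1500004A13Rik and 1.76 times in 5830417I10Rik.

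These transcripts share a place in the genome. In the GENCODE M21 annotation of GRCm38, which need not be the build behind the counts, 1500004A13Rik lies on chromosome 3 from 88782943 to 88832547 on the minus strand. 5830417I10Rik lies from 88775216 to 88825587 on the plus strand. They overlap over 42645 bases, and 2897 of these are exonic in both. Of the 50-base windows of the 1500004A13Rik transcript, 35.52% occur on the opposite strand of 5830417I10Rik. The libraries were strand-specific, but whether the counting used the strand is not stated, so reads from the shared exons may have been split between the transcripts. Of the windows of 5830417I10Rik, 68.35% also occur in Gon4l, the protein-coding gene that follows it, which encodes a nuclear protein. Gon4l itself measured 114, 91.3 and 98.9 CPM in the controls against 108, 106 and 124 CPM in the MitoParks, with its lowest values in the 2 mice where 5830417I10Rik was high. The counts of both transcripts are therefore uncertain by an amount the table does not show. Syt11, on the other side of the pair and encoding a synaptotagmin of vesicle traffic, was between 920 and 1184 CPM in all 6 mice, with a log2 fold change of -0.09.

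The gene with the pattern most like that of 5830417I10Rik was Fcrls, a receptor gene of microglia. Likeness was taken as the root mean square difference of log2(CPM + 0.5) over the 6 mice, each gene centred on its own mean, and it was 0.256 for Fcrls and 0.417 for the next gene, 1700028P14Rik. For 1500004A13Rik the nearest genes were 5830417I10Rik at 1.30 and Fcrls at 1.32. Fcrls measured 2.0, 10.9 and 7.43 CPM in the controls against 2.32, 2.83 and 3.85 CPM in the MitoParks. The same 2 littermate controls were thus the highest for Fcrls, but Fcrls was chosen for its likeness to 5830417I10Rik, so this adds no support. Fcrls lies on chromosome 3 as well, 1511.5 kb from 5830417I10Rik in GENCODE M21. The 7 genes of the microglia and macrophage list did not show this pattern, summing to 136, 163 and 178 CPM in the controls against 178, 168 and 181 CPM in the MitoParks. In a window of 1 Mb on either side of 1500004A13Rik, chosen after the positions were seen, 5830417I10Rik was the only one of 64 tested genes past the cutoffs.

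**Figure D2:**
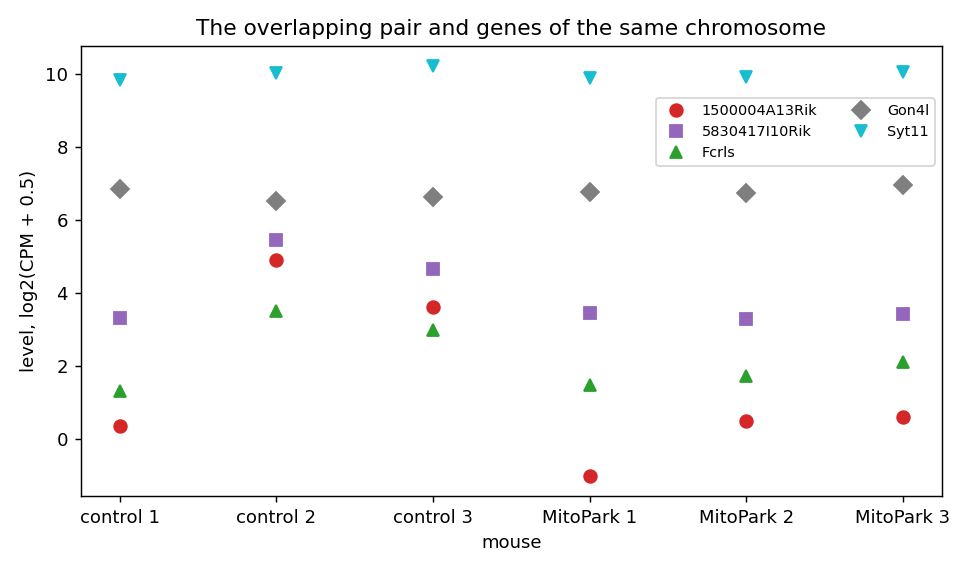
Level of the overlapping transcripts 1500004A13Rik and 5830417I10Rik and of Fcrls, Gon4l and Syt11, all on chromosome 3, as log2(CPM + 0.5) in each mouse. 1500004A13Rik, 5830417I10Rik and Fcrls were highest in controls 2 and 3 (littermate controls), while Gon4l stayed between 91.3 and 124 CPM and Syt11 between 920 and 1184 CPM.

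C730027H18Rik measured 3.23, 2.28 and 1.95 CPM in control mice 1, 2 and 3. MitoParks 1, 2 and 3 were at 6.58, 5.36 and 5.44 CPM. Each MitoPark was above each littermate control, on counts of 20 to 29 in littermate controls and 48 to 54 in MitoParks. The group means were 2.49 ± 0.662 CPM (SD, n = 3) and 5.79 ± 0.684 CPM (SD, n = 3), with a log2FC of 1.22 ± 0.27 (SE). It stayed between 1.07 and 1.45 and past the cutoffs in all 6 fits that left out 1 mouse. None of the 50-base windows of its transcript occurred in another transcript of GENCODE M21, and its deposited values were whole numbers. In RefSeq the long noncoding RNA Gm34328, which was not among the genes tested, overlaps it.

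C730027H18Rik is a neighbour of the targeted gene. In GENCODE M21 it lies on chromosome 10 from 71168737 to 71182040 on the minus strand, with 8 exons, and Tfam is 43.4 kb further along the chromosome. On its other side, the nearest tested gene is Bicc1, which encodes an RNA-binding protein, 9 kb away. Bicc1 measured 7.35, 6.17 and 7.33 CPM in the controls against 10.4, 8.29 and 13.2 CPM in the MitoParks, with a log2FC of 0.61 ± 0.21 (SE). Its groups did not overlap, and like C730027H18Rik it was past the cutoffs. Within 1 Mb on either side of C730027H18Rik, 9 other genes were tested, and 3 of them separated the groups fully, beside 4.71% of all genes tested. These were Bicc1, Tfam with a log2FC of -0.40 ± 0.11 (SE), and Cisd1, which encodes an iron-sulfur protein of the outer mitochondrial membrane, with -0.14 ± 0.10 (SE). Tfam is the targeted gene, so its separation is not a finding of the window. For Cisd1 the lowest control was at 63.4 CPM and the highest MitoPark at 61.7 CPM. Ube2d1 and Ipmk, on the side of Tfam as well, had log2 fold changes of -0.01 and 0.01. The window was chosen after the positions were seen. MitoParks carry loxP on both copies of Tfam and littermate controls on 1, so the group and the genotype of this stretch of chromosome 10 cannot be told apart. No other listed transcript with a position in GENCODE lay near Tfam. A130077B15Rik, on the same chromosome, was 51326.7 kb away, and none was on the chromosome of the dopamine transporter gene.

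**Figure D3:**
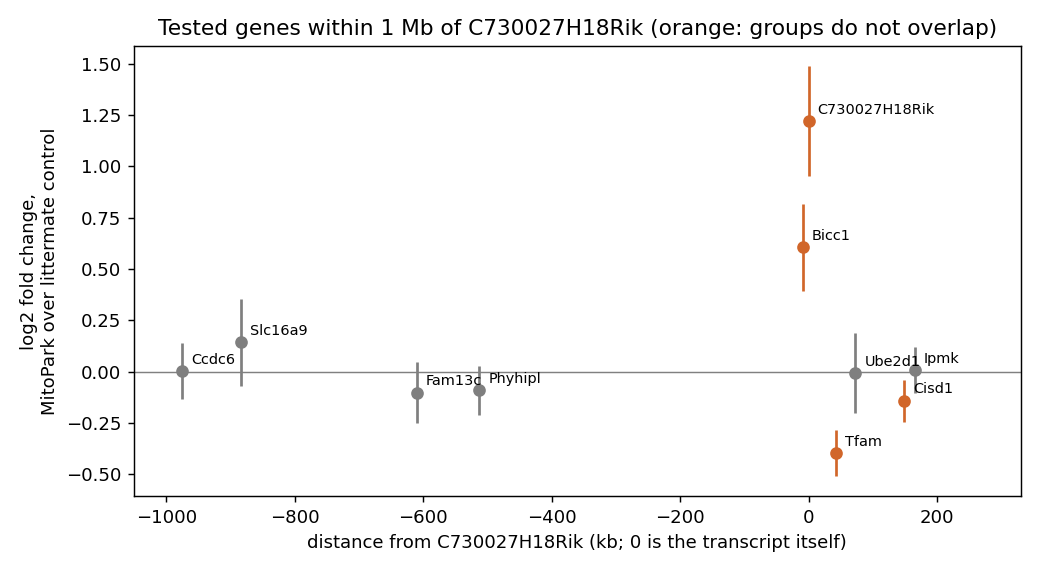
Log2 fold change (MitoPark over littermate control, bars are standard errors) of C730027H18Rik and of the 9 tested genes within 1 Mb, against their distance from C730027H18Rik in kb. The groups did not overlap for the genes in orange, of which C730027H18Rik (1.22) and Bicc1 (0.61) were higher and Tfam (-0.40) and Cisd1 (-0.14) were lower in MitoParks.

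By pattern, the genes nearest to C730027H18Rik were Samd11 at a difference of 0.261 and Ifi27l2a, an interferon-inducible gene, at 0.275. Samd11 measured 4.45, 4.46 and 3.03 CPM in the controls against 7.68, 5.46 and 6.46 CPM in the MitoParks, and it was past the cutoffs, as was Ifi27l2a. Neither lies on chromosome 10. Both were chosen for their likeness to a transcript that separates the groups, so their own group differences add no support.

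6330415B21Rik measured 0.111, 0.57 and 0.586 CPM in control mice 1, 2 and 3, which rests on 1, 6 and 6 counts. MitoParks 1, 2 and 3 were at 1.22, 0.708 and 2.72 CPM, on 10, 7 and 24 counts. The groups did not overlap, but MitoPark 2 and littermate control 3 differed by 1 count before scaling. A log2FC of 1.80 ± 0.67 (SE) resulted. Without MitoPark 3 the transcript fell below the filter and was not fitted, and without littermate control 1 its log2FC was 1.40 ± 0.67 (SE) and not past the cutoffs. It is a transcript of 1 exon that lies within Ctnna2, an alpha-catenin gene of neurons. Ctnna2 was between 109 and 132 CPM in all 6 mice, with a log2 fold change of -0.07. Next to it in pattern came BC051142 at 0.276 and G530011O06Rik at 0.304.

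1700123M08Rik was lower in MitoParks, with 0.488, 0.303 and 0.907 CPM in replicates 1, 2 and 3 against 1.45, 0.95 and 1.47 CPM in littermate controls. MitoPark 3, at 8 counts, and littermate control 2, at 10 counts, nearly met. MitoParks 1 and 2 had 4 and 3 counts, and the MitoPark side of the fit without MitoPark 3 rests on these alone. The log2FC of 1700123M08Rik was -1.18 ± 0.50 (SE) and lay between -1.69 without MitoPark 3 and -0.85 without MitoPark 2. It stayed past the cutoffs in 2 of the 6 fits with 1 mouse left out, those without littermate control 2 and without MitoPark 3. Pdp1, the nearest gene on one side, which encodes a pyruvate dehydrogenase phosphatase, had a log2 fold change of -0.24 and was not past the cutoffs. The nearest to 1700123M08Rik in pattern were LOC100861615 at 0.157 and Mall at 0.165, which had log2 fold changes of -0.59, past the cutoffs, and -0.81, not past them. They were chosen for this likeness, so their fold changes add no support.

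A130077B15Rik measured 267, 243 and 253 CPM in control mice 1, 2 and 3, which makes it the transcript of the 10 with the most counts. MitoParks 1, 2 and 3 were at 299.7, 240.01 and 655 CPM. MitoParks 1 and 2 lay on either side of the littermate controls, and MitoPark 3 was 2.52 times the mean of the other 5 mice. Its log2FC of 0.65 ± 0.31 (SE) became 0.09 ± 0.13 (SE) without MitoPark 3.

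A630089N07Rik measured 54.7, 61.1 and 68.5 CPM in control mice 1, 2 and 3. In MitoParks 1, 2 and 3 it was at 57.9, 63.3 and 163 CPM. All mice but MitoPark 3 were within the range of the littermate controls. With all mice its log2FC was 0.63 ± 0.34 (SE), and without MitoPark 3 it was -0.02 ± 0.14 (SE), so its sign turned.

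4930511M06Rik measured 25.3, 23.7 and 29.2 CPM in control mice 1, 2 and 3. The MitoParks were at 31.2, 22.1 and 65.1 CPM, so that the groups overlapped. Its log2FC went from 0.60 ± 0.33 (SE) with all mice to 0.03 ± 0.18 (SE) without MitoPark 3. The transcript overlaps Ccdc192, which did not pass the filter.

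9530091C08Rik measured 5.12, 4.75 and 5.47 CPM in control mice 1, 2 and 3. MitoParks 1, 2 and 3 were at 7.56, 4.55 and 14.3 CPM. MitoPark 2 was the lowest of the 6 mice. Its log2FC of 0.78 ± 0.37 (SE) became 0.23 ± 0.27 (SE) without MitoPark 3. The transcript lies within Rora, which encodes a nuclear receptor. Rora was between 82.4 and 161 CPM with a log2 fold change of -0.13, and MitoPark 3, at 100.5 CPM, was within the range of the other mice.

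A730017L22Rik measured 11.6, 10.9 and 8.99 CPM in control mice 1, 2 and 3. The MitoParks were at 14.3, 10.9 and 23.6 CPM. MitoPark 3 was again the highest, and MitoPark 2 lay among the littermate controls. For this transcript the log2FC was 0.63 ± 0.27 (SE), and without MitoPark 3 it was 0.26 ± 0.20 (SE). Of the 6 fits with 1 mouse left out, A730017L22Rik was past the cutoffs in 2, those without MitoPark 1 and without MitoPark 2, and it was lost without MitoPark 3 and without each of the littermate controls. Its neighbours 4930402H24Rik and Atrn, which encodes the membrane protein attractin, had log2 fold changes of 0.21 and -0.12.

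**Figure D4:**
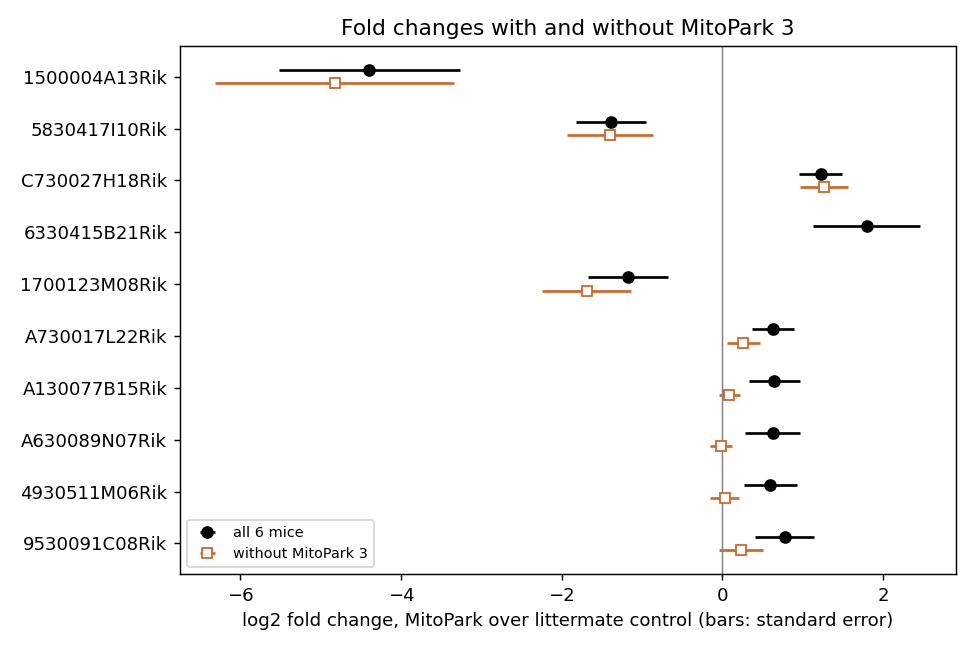
Log2 fold change of each Rik transcript (MitoPark over littermate control, bars are standard errors) in the fit to all 6 mice and in the fit without MitoPark 3, in which 6330415B21Rik did not pass the filter. The values of A730017L22Rik, A130077B15Rik, A630089N07Rik, 4930511M06Rik and 9530091C08Rik, between 0.60 and 0.78 with all mice, lay between -0.02 and 0.26 without MitoPark 3.

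The 5 transcripts resembled each other to differing degrees, and they were grouped by their highest level in MitoPark 3, so some likeness follows from the grouping. The most alike were 4930511M06Rik and 9530091C08Rik, with a root mean square difference of 0.101 on the log2 scale, followed by A130077B15Rik and 4930511M06Rik at 0.104. The least alike were A730017L22Rik and A630089N07Rik at 0.304, followed by A630089N07Rik and 9530091C08Rik at 0.264. Mean levels in MitoParks 1 and 2 alone were between 0.987 and 1.2 times the mean of the littermate controls for these 5. The levels in MitoPark 3 were between 2.08 and 2.67 times the mean of the other 5 mice.

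Genes of other kinds had the same pattern. Nearest to A130077B15Rik were Fbxl12os, an opposite-strand transcript, at 0.0585 and Zfp488, a zinc finger gene of oligodendrocytes, at 0.0623. Zfp488 was between 220 and 278 CPM in 5 mice and at 625 CPM in MitoPark 3. Nearest to A630089N07Rik were F830016B08Rik at 0.0786 and Kcnq1ot1, an imprinted RNA that stays in the nucleus, at 0.0801. Kcnq1ot1 was between 412 and 481 CPM in 5 mice and at 1159 CPM in MitoPark 3. Nearest to 4930511M06Rik were Olfr856-ps1, an olfactory receptor pseudogene, at 0.0514 and Tyms, the thymidylate synthase gene, at 0.053, and Olfr856-ps1 was also the nearest to 9530091C08Rik, at 0.0706, with Perm1 next at 0.0993. Adam21 at 0.106 and Ctla2a at 0.137 were the nearest to A730017L22Rik. All of these were highest in MitoPark 3, but they were chosen for their likeness to transcripts highest there, so this adds no support.

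Of the 10 transcripts, 6 had their highest level in MitoPark 3, as did 20.7% of all genes tested and 27.7% of Rik symbols. In this library, 218 of the 14568 genes tested were at least 1.5 times as high as in every other mouse, or 1.5%, and 31 of the 654 tested Rik symbols, or 4.74%. The other 5 mice had between 25 and 77 such genes, and between 1 and 11 with a Rik symbol. Of the 31 Rik symbols of MitoPark 3, only 7 had a mean level of 10 CPM or more over the 6 mice. Of the 10 transcripts, 6 were among those of MitoPark 3, the 5 above and 6330415B21Rik, and 2, 1500004A13Rik and 5830417I10Rik, were among those of littermate control 2, which held 0.529% of all genes and 1.68% of Rik symbols. The same contrast chose the 10 transcripts, so nothing is read from how many of them stood highest in a given mouse. The part of the nuclear RNAs, of Rn45s and of Tph2 in the levels of MitoPark 3 was not tested.

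**Figure D5:**
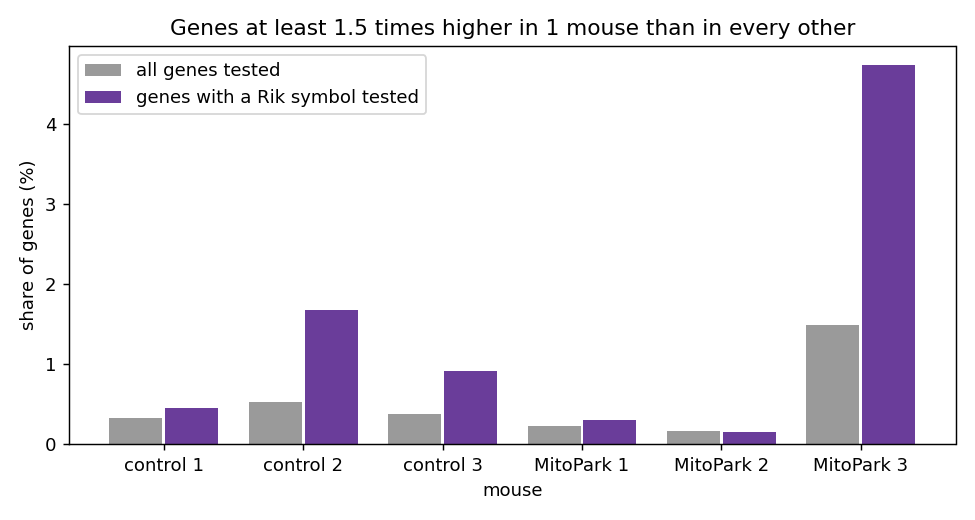
Share of all 14568 genes tested (grey) and of the 654 tested genes with a Rik symbol (purple) whose level in the named mouse was at least 1.5 times that in every other mouse. The shares were highest in MitoPark 3, at 1.5% of all genes and 4.74% of Rik symbols. Of the 31 Rik symbols behind the latter share, 7 had a mean level of 10 CPM or more.

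The nuclear-retained RNAs moved unevenly in MitoPark 3. Malat1 was at 4449 CPM there and between 845 and 2046 CPM in the other mice, and Meg3 at 9443 CPM and between 5151 and 6945 CPM. Neat1 was at 439 CPM and between 145 and 335 CPM in the others. Miat was at 456 CPM against 245 to 410 CPM, and Rian was lowest in MitoPark 3, at 809 CPM against 901 to 1038 CPM. None of the 6 genes of this list was past the cutoffs between the groups. Summed levels of the other lists did not set MitoPark 3 as far apart. The astrocyte list summed to 1868 CPM there and to between 1263 and 1727 CPM in the others, oligodendrocytes to 14420 CPM against 6384 to 16970 CPM, neurons to 3432 CPM against 3678 to 4859 CPM, and red blood cells to 199 CPM against 85.1 to 193 CPM. Choroid plexus genes were highest in littermate control 2, at 179 CPM against 20.3 to 54.5 CPM, through Ttr, the transthyretin gene, at 131 CPM. The ependymal list was also highest in littermate control 2, at 41.6 CPM against 14.8 to 22.9 CPM, and the part of these genes in the levels of 1500004A13Rik and 5830417I10Rik was not tested. Oligodendrocyte precursors and endothelial cells summed to between 94.9 and 115 CPM and between 79.5 and 126 CPM over the 6 mice.

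The transcripts differed widely in length. In GENCODE M21, where 9 of the 10 were found, they were between 770 and 6190 bases long with 1 to 19 exons, against a median length of 3471 bases over tested genes. Their GC content was between 40.59% and 52.96%, and the median over tested genes was 49.73%. The share of 50-base windows found in other annotated transcripts was 20.94% for A130077B15Rik, 11.66% for A630089N07Rik, 10.76% for 4930511M06Rik and 6.37% for A730017L22Rik. The deposited values of the 5 transcripts that were high in MitoPark 3 were not whole numbers in most mice. For 1700123M08Rik, 30.65% of the windows lay on the opposite strand of Gm10604, and its deposited values were whole.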

How the data were processed

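RNA from the SN of 3 MitoParks and 3 littermate controls was sequenced from strand-specific polyadenylated libraries. Per the methods and the labels, the authors mapped reads to UCSC transcripts with Bowtie2 2.1.0 and estimated expected counts per gene with RSEM 1.2.15. The authors deposited these expected counts without normalization, and between 11.91% and 14.11% of them per mouse were not whole. The labels name a human build for these mouse samples, so the build is not settled, and positions are those of GENCODE M21 and RefSeq, not of the table. Of the table's columns, 0 belonged to no sample. The MitoPark columns carry the word Treat and were matched to the samples by replicate number.

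After rounding of the expected counts, the filter required either group to average more than 1 CPM, and edgeR 4.0.16 (R 4.3.3) with TMM normalization fitted the groups with no other term (quasi-likelihood test, Benjamini-Hochberg adjustment over all genes). The design was taken from the study's methods. The procedure was tested on simulated counts. A floor of 3 counts equals 0.285 to 0.366 CPM, depending on the library, and this covers counting error alone. Mice of a group differed by more than sampling noise (lowest chi-square over its degrees of freedom 9.68) and counted as separate replicates. P-values set the difference between the groups against a spread between these mice that edgeR estimates partly from other genes.

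Named genes were the 10 transcripts, other Rik symbols past the cutoffs, the 2 genes nearest in pattern to each transcript, neighbouring genes, Tfam and the marker lists. The transcripts and lists were chosen with earlier results of these data known. The 12 lists covered dopaminergic neurons, neurons, microglia and macrophages, astrocytes, oligodendrocytes and their precursors, endothelial cells, ependymal cells, choroid plexus, red blood cells, nuclear-retained RNAs and sex-linked genes. Transcript windows of 50 bases were searched in all GENCODE M21 transcripts on both strands. Alternatives used DESeq2 1.42.0, limma 3.58.1 (voom) and edgeR's exact test, other normalizations and filters, counts without rounding, a block for the replicate number, and fits that each omitted 1 mouse.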

Additional observations from a re-analysis of the deposited data

How the results depend on the processing

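Of 138 log2 fold changes of the 10 transcripts in alternatives other than the fit without MitoPark 3, all 138 kept their sign and 0 moved by more than the spread between mice. Without MitoPark 3, the values of A130077B15Rik, A630089N07Rik, 4930511M06Rik and 1700123M08Rik moved by more than that spread. The number of listed transcripts past the cutoffs was 7 by DESeq2 and by edgeR's exact test, 4 by limma-voom, 8 without a filter and 4 of 8 with at least 10 counts in at least 3 mice, and with 1 mouse left out it ranged from 3 to 9. Limma-voom did not call 1500004A13Rik and A730017L22Rik. DESeq2 did not call 1700123M08Rik but called 4930511M06Rik and 9530091C08Rik, and the exact test added A130077B15Rik. The number of Rik symbols past the cutoffs, 10 in the fit reported, ranged from 6 to 29 with 1 mouse left out. That of all genes, 84, was 176 without a filter and ranged from 62 to 219 with 1 mouse left out. The number of Rik symbols whose groups did not overlap, 41, was 73 without a filter and ranged from 79 to 151 with 1 mouse left out, where a group of 2 mice makes overlap less likely by construction.

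Mice 1, 2 and 3 of each group departed from their group means with correlations of 0.352, -0.0695 and 0.277 between mice of the same number. Mice of unlike numbers were not compared, so these values cannot show whether the replicate numbers pair the mice. With the replicate number as a block, 126 genes, 10 Rik symbols and 6 listed transcripts were past the cutoffs, with 9530091C08Rik in place of A730017L22Rik. The standard error of 1500004A13Rik was 0.364 with the block and 1.13 without it. The low counts of 6330415B21Rik and 1700123M08Rik limit what can be said of them at this depth.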

Other observations

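Besides the listed transcripts, 4 genes with a Rik symbol were past the cutoffs, all higher in MitoParks. With the listed transcripts that made 10 of 654 tested Rik symbols, or 1.53%, beside 0.577% of all genes. The groups of these 4 did not overlap, beside 4.71% of all genes tested and 6.27% of Rik symbols. The same contrast picked the 4, so nothing is read from their separation. The 10 became 6 without littermate control 1, 19 without littermate control 3 and 29 without MitoPark 2. D830005E20Rik measured 0.668, 0.475 and 0.586 CPM in control mice 1, 2 and 3 against 1.58, 1.42 and 2.95 CPM in the MitoParks, with a log2FC of 1.76 ± 0.45 (SE). It rests on 5 or 6 counts in controls and 13 to 26 in MitoParks, and passed the filter through the MitoParks only. 4930432K21Rik was at 1.23, 1.23 and 1.56 CPM and then at 3.17, 1.72 and 2.61 CPM, a log2FC of 0.88 ± 0.35 (SE). Its control 3 had 16 counts and its MitoPark 2 had 17. 1700018L02Rik was at 0.78, 0.855 and 1.37 CPM and then at 2.32, 1.42 and 1.93 CPM, a log2FC of 0.89 ± 0.39 (SE). Control 3 and MitoPark 2 had 14 counts each for 1700018L02Rik, so only the scaling separated them. G530011O06Rik was at 4.12, 7.41 and 10.3 CPM and then at 11.1, 11.2 and 16.8 CPM, a log2FC of 0.83 ± 0.31 (SE).

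MitoPark 3 exceeded every other mouse by at least 1.5 times in 25 Rik symbols that are not among the 10 transcripts. 4930470H14Rik was between 25.98 and 32.4 CPM in 5 mice and at 77.8 CPM in MitoPark 3. A230073K19Rik was between 43.3 and 67.9 CPM in 5 mice and at 116 CPM in MitoPark 3, and C330024D21Rik between 5.61 and 8.01 CPM and at 18.8 CPM. These 3 were chosen after their values were seen.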
